A study of Mus musculus with 12 samples.

Results

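The genes followed here encode proteins of the mitochondrial ribosome, in brain tissue of mice lacking telomerase reverse transcriptase and of wild-type mice. They were the protein-coding genes whose symbol in the GRCm38 annotation begins with Mrpl or Mrps and a digit and that averaged 10 or more normalized counts in each of the tissue tables, with 1 gene left out by the selection. The rule found 77 genes among 55487 gene rows, 48 of them named Mrpl and 29 named Mrps, and it used the mean over both genotypes, not their difference. The other 5 rows with such names, Mrpl23-ps1, Mrpl48-ps, Mrps36-ps1, Mrps36-ps2 and Mrps36-ps3, are annotated as pseudogenes and were not members. RNA sequencing of total RNA from C57BL/6 mice gave 12 libraries. They were 3 each from the hippocampus of mice labelled mTert KO (G1), the hippocampus of mTert WT mice, the cerebral cortex of mTert KO (G1) mice and the cerebral cortex of mTert WT mice, called KO and WT below. The labels do not spell out G1, name no promoter or Cre, and do not tell if each library is its own animal. The p-values therefore set each difference between KO and WT against the scatter of these libraries, and that scatter may be technical.

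The mitochondrial ribosome translates the few messenger RNAs of the mitochondrial genome, which encode core subunits of the respiratory chain and of ATP synthase. Its ribosomal RNAs are transcribed from mitochondrial DNA, whereas its proteins are encoded in the nucleus, made in the cytosol and imported. Mrpl genes encode proteins of the large subunit, which forms peptide bonds and holds the exit tunnel, and Mrps genes encode proteins of the small subunit, which binds messenger RNA and decodes it. A few names do not match the place of the protein: those of Mrps18a and Mrps30 lie in the large subunit, and that of Mrps36 belongs to the alpha-ketoglutarate dehydrogenase complex. In humans, inherited defects of several of these genes cause disease of brain, heart or liver with loss of respiratory chain activity.

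Promoters are shown for 4 members. Mrpl50 and Mrpl43 are shown because their call in hippocampus held under every alternative processing tried, and Mrpl9 and Mrps11 because they carry a word bound by a factor known for nuclear genes of mitochondrial proteins. RefSeq promoters of GRCm38.p6, from 250 bases before to 50 bases after the start of a gene, were matched by symbol for 68 of the 77 members. The Mrpl50 promoter lies at chr4:49521034-49521333 on the minus strand, that of Mrpl43 at chr19:45006393-45006692 on the minus strand, that of Mrpl9 at chr3:94443086-94443385 on the plus strand and that of Mrps11 at chr7:78782881-78783180 on the plus strand. Capitals mark the ETS word ACCGGAAGT in Mrpl43, the NRF1 word in Mrpl9 and the YY1 word in Mrps11, where it reads on the opposite strand. Mrpl50 holds none of these words.
Mrpl50: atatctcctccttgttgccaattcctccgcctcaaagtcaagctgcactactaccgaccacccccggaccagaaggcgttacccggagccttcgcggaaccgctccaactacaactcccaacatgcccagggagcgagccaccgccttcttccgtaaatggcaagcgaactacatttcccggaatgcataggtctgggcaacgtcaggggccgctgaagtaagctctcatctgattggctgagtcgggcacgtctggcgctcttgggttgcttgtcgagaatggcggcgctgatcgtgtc
Mrpl43: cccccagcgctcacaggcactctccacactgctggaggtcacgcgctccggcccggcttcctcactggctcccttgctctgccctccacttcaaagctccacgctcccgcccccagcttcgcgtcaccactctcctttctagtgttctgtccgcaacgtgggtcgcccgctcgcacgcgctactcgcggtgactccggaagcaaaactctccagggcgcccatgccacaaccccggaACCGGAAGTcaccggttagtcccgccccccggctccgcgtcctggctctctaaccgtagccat
Mrpl9: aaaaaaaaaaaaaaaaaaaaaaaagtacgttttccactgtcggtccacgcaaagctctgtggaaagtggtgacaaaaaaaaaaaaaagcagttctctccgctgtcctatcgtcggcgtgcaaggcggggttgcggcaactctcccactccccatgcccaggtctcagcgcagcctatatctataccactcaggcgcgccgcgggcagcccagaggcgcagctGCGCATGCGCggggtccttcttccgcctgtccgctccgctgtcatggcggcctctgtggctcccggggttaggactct
Mrps11: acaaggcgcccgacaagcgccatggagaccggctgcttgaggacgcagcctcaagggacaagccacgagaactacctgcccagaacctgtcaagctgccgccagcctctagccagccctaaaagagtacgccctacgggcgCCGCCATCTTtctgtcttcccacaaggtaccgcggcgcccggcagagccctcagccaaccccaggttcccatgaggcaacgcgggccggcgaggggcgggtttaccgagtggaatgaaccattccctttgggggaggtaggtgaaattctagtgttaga

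The 3 words, each as capitalised above, were searched on both strands of each promoter, and no promoter printed above holds more than 1. The NRF1 word stood in 3 of the 68 member promoters (4.41%; Mrpl9, Mrpl32 and Mrpl39), against 1.82% of the promoters of protein-coding genes tested in hippocampus. The ETS word, bound by factors such as GABP, stood in 4 (5.88%; Mrpl3, Mrpl43, Mrpl51 and Mrpl52), against 1.94%, and the YY1 word in 5 (7.35%; Mrpl35, Mrpl37, Mrps11, Mrps18a and Mrps27), against 1.78%. Over all promoters of the same length the shares were 0.977%, 1.10% and 0.899%. With 1 base fewer at each end, the ETS word (CCGGAAG) was found in 25 member promoters (36.8%, against 15.8% of tested protein-coding genes). Of the 17 members with a promoter entry that rose in hippocampus, 1 held a full word, Mrpl43. These shares describe letters in a window and were not tested. The members' promoters had a median GC content of 58.5%, against 60.3% for tested protein-coding genes.

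Many members start close to the start of a gene on the other strand. A protein-coding gene on that strand began within 1000 bases, to either side, of the start of 32 of the 77 members (41.6%). The same held for 14.1% of 15967 tested protein-coding genes. Both pairs that point apart and pairs that overlap at their starts are counted. Mrpl46 and Mrps11 are an overlapping pair of 2 members, with starts 412 bases apart and 173 exonic bases shared. Mrpl43 lies 779 bases from the start of Twnk, the helicase of mitochondrial DNA replication, and Mrps12 lies 172 bases from that of Sars2, the mitochondrial seryl-tRNA synthetase. The members are spread over 17 chromosomes. Their exonic length, all annotated exons merged, ran from 607 bases (Mrpl34) to 8631 bases (Mrps35), with a median of 2533, against 3495 for protein-coding rows. Exonic sequence was shared with another annotated gene by 32 members, and by 17 of them for at least 10% of their exons. Neither the handling of reads in such stretches nor the strandedness of the counting is given in the sources used here, so values of these members are uncertain.

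The libraries held between 68424934 and 86639113 reads, recovered from the deposited values. Tert, the deleted gene, had 0, 6.31 and 0 normalized counts in KO hippocampus, against 147, 184 and 128 in WT hippocampus, and 0, 0 and 0 in KO cortex, against 206, 105 and 241 in WT cortex. WT cortex library 2 stood apart: per gene, the chi-square of its counts was 102 against WT cortex library 1 and 93.9 against library 3, while that between libraries 1 and 3 was 9.54. Over protein-coding genes its values ran against gene length, with a log2 deviation of -0.15 per doubling of exonic length. That deviation was 0.01 to 0.03 in KO cortex libraries and 0.05 and 0.04 in WT cortex libraries 1 and 3. In hippocampus the highest chi-square per gene within a group was 48.8, between WT libraries 1 and 2. There 7 choroid plexus markers summed to 9305 to 18369 normalized counts in KO libraries, against 349743, 12645 and 181432 in WT libraries 1, 2 and 3, and none of the 7 passed the test. Rising and falling here mean a limma adjusted p under 0.05. Of all genes 14.1% rose and 15.1% fell in hippocampus, and 1.28% rose and 0.661% fell in cortex. The 8 microglia markers summed to 30444 to 31818 in KO hippocampus, against 21112 to 25279.8 in WT hippocampus, and 7 rose. The 7 oligodendrocyte markers summed to 433936 to 503294 in KO hippocampus, against 399520.0 to 404381 in WT hippocampus, and 4 rose. The 7 neuronal markers summed to 468280.0 to 476370.0 in KO hippocampus, against 415634 to 478098 in WT hippocampus, where 5 rose and 1 fell. The 7 astrocyte markers summed to 292203 to 307716 in KO hippocampus, below all WT libraries at 310285 to 375707, while 3 rose and 1 fell. The 7 endothelial markers summed to 22782 to 23041 in KO hippocampus, against 38328, 17709.8 and 28291 in WT libraries 1, 2 and 3, and none passed the test. Defining hippocampus markers summed to 82027 to 86642 in KO hippocampus, against 96374 to 112239 in WT hippocampus, where 2 of 7 rose and 3 fell. Defining cortex markers summed to 79717 to 80858 in KO cortex, against 68664 to 76103 in WT cortex, where 1 of 7 rose and 1 fell. In cortex, 8 striatal neuron markers summed to 30618 to 48839 in KO libraries, against 12355 to 13545 in WT libraries, and 7 rose. The KO cortex sums also lay above all WT cortex sums for choroid plexus markers (2588 to 11405 in KO, against 1494 to 1788 in WT, with 1 rising), oligodendrocyte markers (376387 to 407327 in KO, against 327856 to 336999 in WT, with 0 rising) and endothelial markers (20443 to 21835 in KO, against 16434 to 17122 in WT, with 2 rising). The same held for microglia markers (22419 to 22763 in KO, against 19517 to 21979 in WT, with 1 rising) and neuronal markers (587285 to 605351 in KO, against 547991 to 554118 in WT, with 0 rising). Astrocyte markers overlapped between the genotypes in cortex (253479 to 272933 in KO, against 239775 to 338617 in WT), and 1 of 7 fell. None of these markers was at 0 in all libraries of its tissue. Their part in the members' values was not tested, and in bulk tissue fewer cells of a type and less RNA per cell cannot be told apart.

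Levels per kb of merged exon set genes side by side, though they depend on the length taken for each gene. On this scale the highest member stood 18.5-fold above the lowest in WT hippocampus and 18.2-fold in WT cortex. In hippocampus the members named Mrpl had a median level of 710.0 normalized counts per kb in KO and 665 in WT. Those named Mrps had 602 in KO and 585 in WT. Mrps21, a small-subunit protein with a bacterial counterpart, had a level of 2263 ± 101 in KO hippocampus and 2241 ± 9.52 in WT hippocampus (mean ± SD, n = 3 each). Mrpl41, a large-subunit protein without one, had 2322 ± 119 in KO hippocampus and 2069.7 ± 138 in WT hippocampus, so these 2 were within their spread in KO, while in WT Mrps21 was above Mrpl41 by more than either SD. Mrpl10, at the base of the stalk that binds translation factors, had 2225 ± 75.6 in KO hippocampus and 1987 ± 47.9 in WT hippocampus. At the low end in WT, Mrps35, a small-subunit protein without a bacterial counterpart, had 117 ± 0.693 in KO hippocampus and 121 ± 4.81 in WT hippocampus. Mrpl33, counterpart of a small bacterial large-subunit protein, had 134 ± 12.6 in KO hippocampus and 147 ± 3.76 in WT hippocampus, and Mrpl13 had 185 ± 1.75 in KO hippocampus and 177 ± 6.72 in WT hippocampus. In cortex the highest levels were those of Mrps21 (1982 ± 129.6 in KO cortex and 2439.6 ± 753 in WT cortex), Mrpl41 (1842 ± 66.8 in KO cortex and 2092 ± 416 in WT cortex) and Mrps12, a protein of the decoding centre (1794 ± 20.3 in KO cortex and 1970.4 ± 452 in WT cortex). The lowest in WT cortex were those of Mrpl33 (104 ± 13.2 in KO cortex and 134 ± 21.8 in WT cortex), Mrps35 (133 ± 4.75 in KO cortex and 146 ± 3.97 in WT cortex) and Mrpl32 (148 ± 7.33 in KO cortex and 158 ± 30.4 in WT cortex), while in KO cortex Mrpl13 (146 ± 6.18 in KO cortex and 185 ± 47.4 in WT cortex) was slightly below Mrpl32. When the longest transcript was used in place of merged exons, 7 of the 10 highest members were shared in hippocampus and 8 of 10 in cortex. Single ranks moved at both ends. Mrpl20 went from rank 15 to 3 in WT hippocampus and from 11 to 2 in WT cortex. Mrpl33 went from rank 76 to 62 in WT hippocampus and from 77 to 69 in WT cortex, where Mrpl17 (217) was then the lowest.

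In hippocampus, 18 of the 77 members (23.4%) rose in KO and 0 fell, while 14.1% of all 22337 genes tested rose and 15.1% fell (29.2% in either direction). Of the protein-coding genes, to which all members belong, 17.4% rose and 15.1% fell. A gene was said to rise or fall at a limma adjusted p under 0.05, Benjamini-Hochberg over all genes tested. The rises were small, between 1.10-fold and 1.43-fold, with a median of 1.16-fold. Over all members the median log2 fold change, KO over WT on the log2(normalized count + 1) scale, was 0.11, against 0.02 for all genes and 0.03 for protein-coding genes. It was above 0 for 68 of 77 members, against 54.8% of protein-coding genes. The KO libraries all lay above the WT libraries for 35 members (24.3% of all genes) and all below for 3 (21.5% of all genes). Among 15967 protein-coding genes they lay above for 4491 and below for 3302. Of the members named Mrpl 13 of 48 rose (median 0.11), and of those named Mrps 5 of 29 (median 0.11). The members took 0.178%, 0.182% and 0.178% of all normalized counts in KO hippocampus, against 0.171%, 0.167% and 0.168% in WT hippocampus, so the groups did not overlap. The count of 18 depended on single libraries. It was 7, 9 and 8 without KO library 1, 2 and 3, and 10, 20 and 3 without WT library 1, 2 and 3, with none falling in any of these, and the median stayed between 0.09 and 0.12. As shares of the members these counts were 9.09%, 11.7% and 10.4% without a KO library, when 8.55%, 6.54% and 8.16% of all genes rose (21.1%, 18.1% and 20.5% changed in either direction). Without WT library 1, 2 and 3 the members' shares were 13.0%, 25.97% and 3.90%, when 11.5%, 17.5% and 5.84% of all genes rose (25.7%, 35.2% and 16.4% in either direction). The members' share was thus near the share of all genes without KO library 1 and below it without WT library 3. With no trend of the prior variance 7 members rose (9.09%), against 7.68% of all genes (20.5% in either direction). The count was 15 with edgeR and TMM scaling (13.5% of all genes higher, 29.9% in either direction) and 14 with DESeq2 on recovered reads (13.5% of all genes higher, 30% in either direction).

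**Figure D1:**
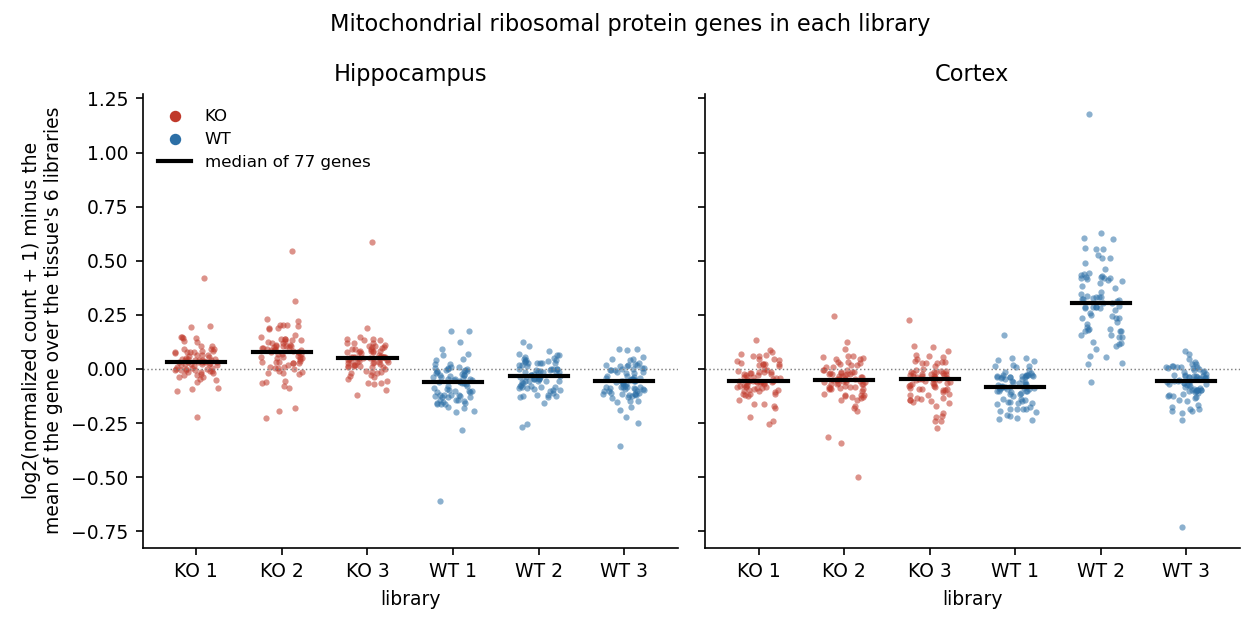
Each point is 1 of the 77 members in 1 library, as its log2(normalized count + 1) minus the mean of that gene over the 6 libraries of the tissue, and black bars are medians over members. The 3 KO hippocampus libraries have medians of 0.03, 0.08 and 0.05 and the 3 WT hippocampus libraries -0.06, -0.03 and -0.06. In cortex, WT library 2 lies far up, with a median of 0.30, while the 3 KO libraries are at -0.05 and WT libraries 1 and 3 at -0.08 and -0.06.

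Mrpl50 and Mrpl43, large-subunit proteins without a bacterial counterpart, were the members called in each of the 18 alternatives tried for this tissue. Mrpl50 had 2329, 2343 and 2229.8 normalized counts in KO hippocampus, against 1905, 1931 and 1941 in WT hippocampus. The lowest KO library was well above the highest WT library (0.26 ± 0.04, adjusted p = 0.0042; log2 fold change ± SE here and below). Mrpl43 had 1813, 1983 and 1875 in KO hippocampus, against 1537, 1629 and 1549 in WT hippocampus, again without overlap (0.27 ± 0.05, adjusted p = 0.00867). Mrpl43 shares 33.4% of its exons with Twnk on the opposite strand, whose log2 fold change was -0.04 (adjusted p = 0.729), and Mrpl50 shares none.

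Mrpl2, the counterpart of a bacterial protein beside the peptidyl transferase centre, had 1933, 1921 and 2088 normalized counts in KO hippocampus, against 1685, 1705 and 1688 in WT hippocampus. Its WT libraries were almost level, and all 3 KO libraries lay above them (0.23 ± 0.05, adjusted p = 0.0124). Mrpl44, an RNase III-like protein whose human gene is mutated in a cardiomyopathy, had 1297, 1245 and 1294 in KO hippocampus, against 1054, 1153 and 1042 in WT hippocampus (0.24 ± 0.06, adjusted p = 0.019). Mrpl47, at the rim of the exit tunnel, had 1192, 1076 and 1135 in KO hippocampus, against 938, 987 and 959 in WT hippocampus (0.24 ± 0.06, adjusted p = 0.0203). For both, the KO and WT libraries did not overlap. Without WT library 3 the adjusted p was 0.0547 for Mrpl2, 0.0815 for Mrpl44 and 0.0748 for Mrpl47. Without KO library 1 or 3 it was 0.0635 and 0.0651 for Mrpl44, and 0.0711 and 0.0635 for Mrpl47.

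Among small-subunit members, Mrps25 had the largest called change. It had 2791, 3681 and 2671 normalized counts in KO hippocampus, against 2076, 2091 and 2159.5 in WT hippocampus. KO library 2 was far above the other KO libraries, which themselves were above each WT library (0.52 ± 0.11, adjusted p = 0.0123). The gene shares 69.8% of its exons with Nr2c2, a nuclear receptor gene on the opposite strand that fell by 0.78 (adjusted p = 0.000876), and reads of the 2 genes there cannot be told apart without strand. Mrps18b had 1035, 979.5 and 949.6 in KO hippocampus, against 839, 808 and 820.0 in WT hippocampus, with no overlap (0.26 ± 0.06, adjusted p = 0.013). Mrps22, whose human gene is mutated in a mitochondrial disease, had 1039, 1040.0 and 1059.8 in KO hippocampus, against 876, 911 and 891 in WT hippocampus, also without overlap (0.23 ± 0.05, adjusted p = 0.0135). Without WT library 3 the adjusted p was 0.0549 for Mrps18b and 0.0572 for Mrps22, and without KO library 3 that of Mrps22 was 0.05004.

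The other 10 that rose were Mrps26, Mrpl11, Mrpl10, Mrpl48, Mrps7, Mrpl27, Mrpl16, Mrpl18, Mrpl4 and Mrpl20, with log2 fold changes between 0.14 (Mrpl4) and 0.24 (Mrpl16). In each of the 18 the 3 KO libraries lay above the 3 WT libraries. Mrpl48, the member with the most normalized counts, had 4902, 5158 and 4809 normalized counts in KO hippocampus, against 4162, 4549.7 and 4390.0 in WT hippocampus (0.18 ± 0.05, adjusted p = 0.0264). It shares 8.7% of its exons with Rab6a on the opposite strand. Rab6a averaged 36471 in KO hippocampus and 29334 in WT hippocampus (0.32, adjusted p = 0.00486), and its part in the Mrpl48 values was not tested. These 10 were less stable: each lost its call without KO library 2 and again without WT library 3, and they were called in 3 (Mrpl20) to 13 (Mrpl48) of the 18 alternatives. Exons were shared with another gene by 11 of the 18. Among the 45 members that share none, 7 rose, with a median log2 fold change of 0.10, and among the 32 that share some, 11 rose, with a median of 0.15.

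**Figure D2:**
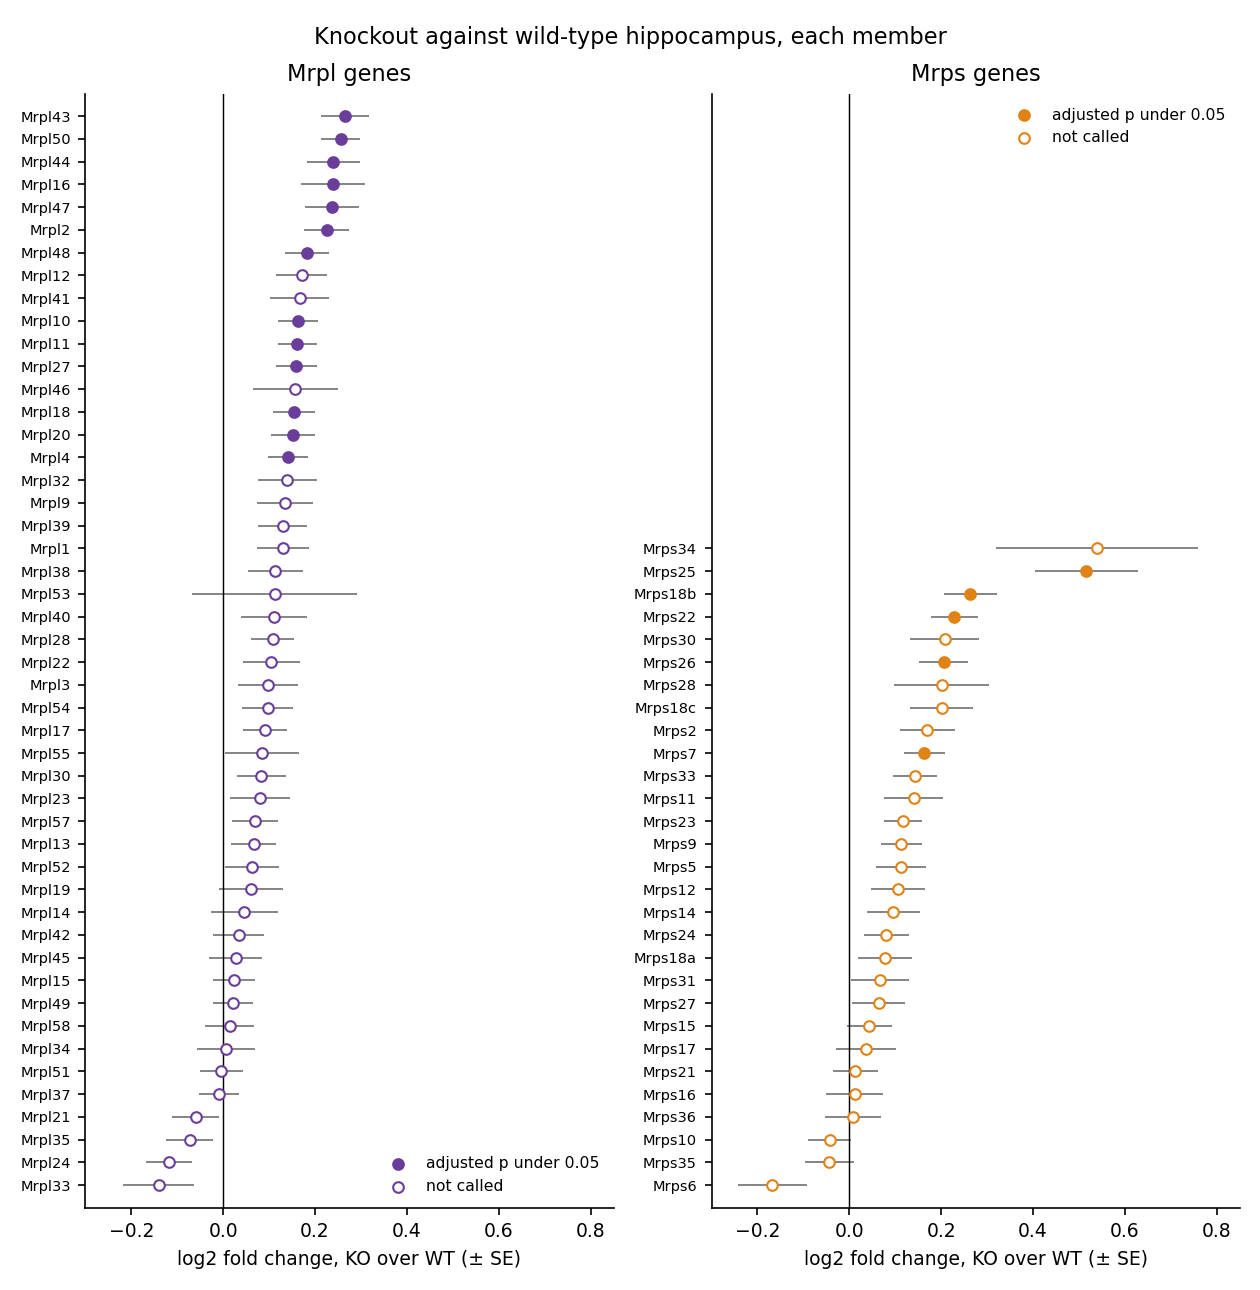
Log2 fold change of each member in hippocampus, KO over WT, with its standard error from limma, large-subunit names on the left and small-subunit names on the right, filled where the adjusted p was under 0.05. Most points lie above 0, and Mrps34 and Mrps25 stand apart at 0.54 and 0.52.

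**Figure D3:**
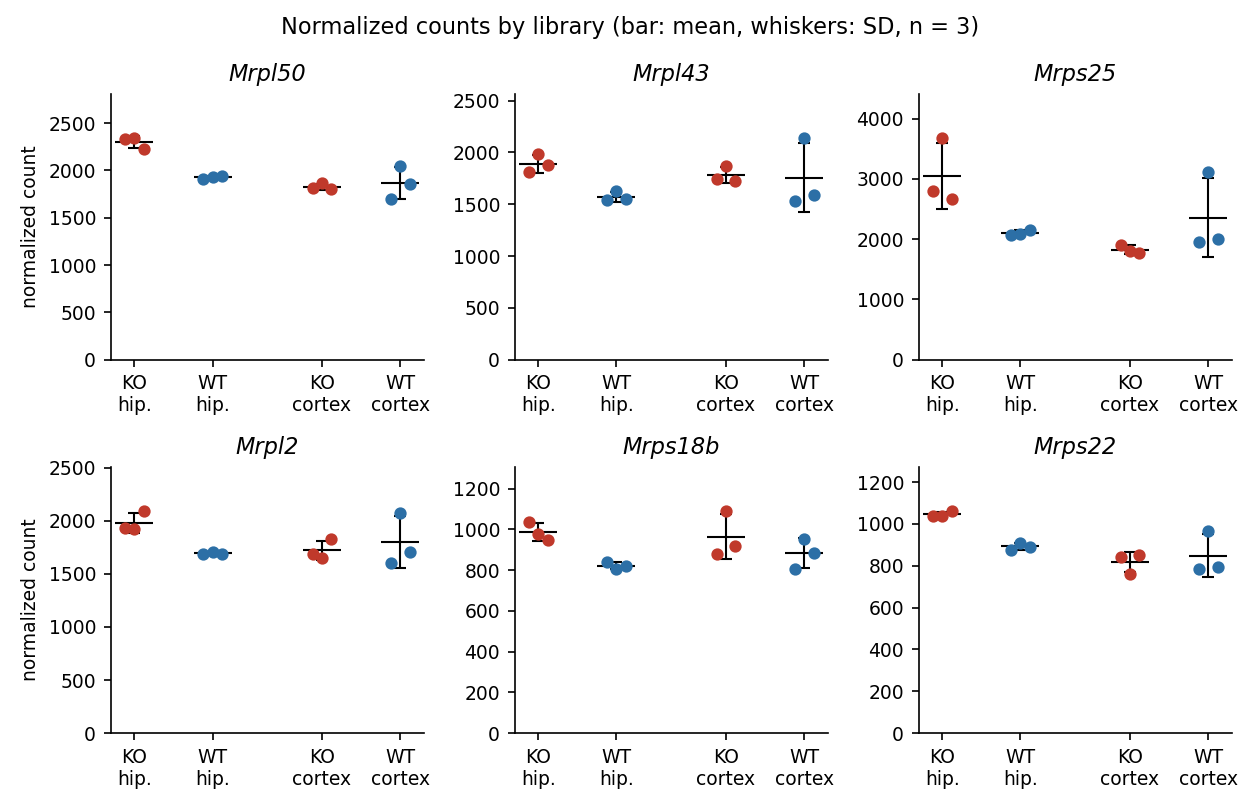
Normalized counts of 6 called members in each library, with the mean (bar) and SD (whiskers) of 3 libraries, KO left of WT in hippocampus and in cortex. KO lies above WT in hippocampus for all 6, and in WT cortex library 2 is the highest of its group for each.

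Members at the other end were few. Mrps6, counterpart of a bacterial protein of the small-subunit platform, had 923, 815 and 885 normalized counts in KO hippocampus, against 1044, 915 and 987 in WT hippocampus (-0.17 ± 0.07, adjusted p = 0.131). Its groups overlapped, and it shares 10.4% of its exons with Slc5a3, a myo-inositol transporter gene that fell by 0.81 (adjusted p = 0.000109). Mrpl33 had 1014, 875 and 1049 in KO hippocampus, against 1092, 1045 and 1093 in WT hippocampus (-0.14 ± 0.08, adjusted p = 0.214), with overlap. Mrpl24, at the rim of the exit tunnel, had 2037, 2050.1 and 2148 in KO hippocampus, against 2359, 2164 and 2246 in WT hippocampus, the KO libraries all below (-0.12 ± 0.05, adjusted p = 0.114). None of these 3 passed the test. Mrps34, whose human gene is mutated in Leigh syndrome, had the largest log2 fold change of all members. It had 1916, 1251 and 2151 in KO hippocampus, against 938, 1423 and 1258 in WT hippocampus, with overlap (0.54 ± 0.22, adjusted p = 0.105), and without KO library 2, its lowest KO library, it was 0.77 (adjusted p = 0.0278). Its exons are shared for 63.4% with Mapk8ip3 on the opposite strand and for 37.0% with Nme3 on the same strand. Mapk8ip3 averaged 51504 normalized counts in KO hippocampus and 51085 in WT hippocampus (0.01, adjusted p = 0.895). Nme3 had a log2 fold change of 0.13 (adjusted p = 0.799). The part of either gene in the Mrps34 values was not tested.

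By role, the stalk gene Mrpl12 had 2680.0, 2994 and 2731 normalized counts in KO hippocampus, against 2527, 2550.4 and 2382 in WT hippocampus, without overlap (0.17 ± 0.06, adjusted p = 0.0554). Mrpl10 and Mrpl11, of the stalk base, rose (0.16 ± 0.04, adjusted p = 0.0257, and 0.16 ± 0.04, adjusted p = 0.0245). All 3 genes of the stalk and its base were above 0, as were 68 of all 77 members. Of 5 genes at the rim of the exit tunnel (Mrpl22, Mrpl23, Mrpl24, Mrpl45 and Mrpl47) 1 rose, and the median was 0.08. Of the 47 members whose protein family also occurs in bacterial ribosomes 11 rose (median 0.11), and of the 29 found in mitochondrial but not in bacterial ribosomes 7 rose (median 0.11). Mrps36, the member that is no ribosomal protein, had 895, 956 and 859 in KO hippocampus, against 882, 901 and 910.0 in WT hippocampus (0.01 ± 0.06, adjusted p = 0.94). These roles were assigned from general knowledge after the values were seen.

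Mrps18a, Mrps18b and Mrps18c encode 3 relatives of 1 bacterial protein, placed at different sites of the ribosome. Mrps18c had 858, 925 and 934 normalized counts in KO hippocampus, against 745, 838 and 782 in WT hippocampus, without overlap (0.20 ± 0.07, adjusted p = 0.0632). Mrps18a had 2308, 2417 and 2296 in KO hippocampus, against 2384, 2203 and 2079 in WT hippocampus, with overlap (0.08 ± 0.06, adjusted p = 0.368). Of the 3, Mrps18b passed the test, which does not show that they differ from each other. Per kb of merged exon the order of levels was Mrps18c (842 ± 38.6 in KO hippocampus and 733 ± 43.6 in WT hippocampus), Mrps18a (634 ± 18.1 in KO hippocampus and 602 ± 41.5 in WT hippocampus) and Mrps18b (473 ± 20.7 in KO hippocampus and 394 ± 7.56 in WT hippocampus), with neighbours further apart than their SDs. Mrps18b shares 30.5% of its exons with Gm16279, and Mrps18c shares 23.2% with Gm43511. The order depends on the length used. With the longest transcript, Mrps18a (1001) came before Mrps18c (961) and Mrps18b (762) in WT hippocampus. In cortex none of the 3 passed the test. There Mrps18a had 2008, 2050.0 and 1991 in KO cortex, against 2048, 2665 and 1999.6 in WT cortex, and Mrps18b had 881, 1089 and 920.2 in KO cortex, against 807, 955 and 885 in WT cortex. Mrps18c had 723, 649 and 651 in KO cortex, against 610.3, 934 and 636 in WT cortex, and in all 3 genes the groups overlapped.

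The hippocampus fold changes varied with exonic length over protein-coding genes. The log2 deviation per doubling of length was -0.03, -0.04 and -0.04 in KO hippocampus libraries, against 0.01, 0.07 and 0.03 in WT hippocampus libraries. Protein-coding genes of 2 to 4 kb had a median log2 fold change of 0.10, those of 8 to 12 kb -0.16 and those over 12 kb -0.46, and no member was over 12 kb. In the same bins the members' median was 0.11 against 0.04 up to 1 kb, 0.12 against 0.07 for 1 to 2 kb and 0.11 against 0.10 for 2 to 4 kb. It was 0.09 against 0.04 for 4 to 8 kb and -0.01 against -0.16 for the 4 members of 8 to 12 kb. Among members of 2 to 4 kb, 28.0% rose, against 23.55% of protein-coding genes of that length, and among members of 1 to 2 kb 28.6%, against 14.6%. Of the 18 members of 4 to 8 kb 16.7% rose, against 18.8% of protein-coding genes, of the 9 up to 1 kb 11.1%, against 8.63%, and of the 4 of 8 to 12 kb 1 rose, against 8.41%. When the trend along exonic length was removed from the values, 13 members rose and 1 fell, Mrpl24 at -0.16 (adjusted p = 0.0418), against 13.5% and 12.1% of all genes (25.6% in either direction). The median of the members was then 0.08, against 0.01 for all genes.

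**Figure D4:**
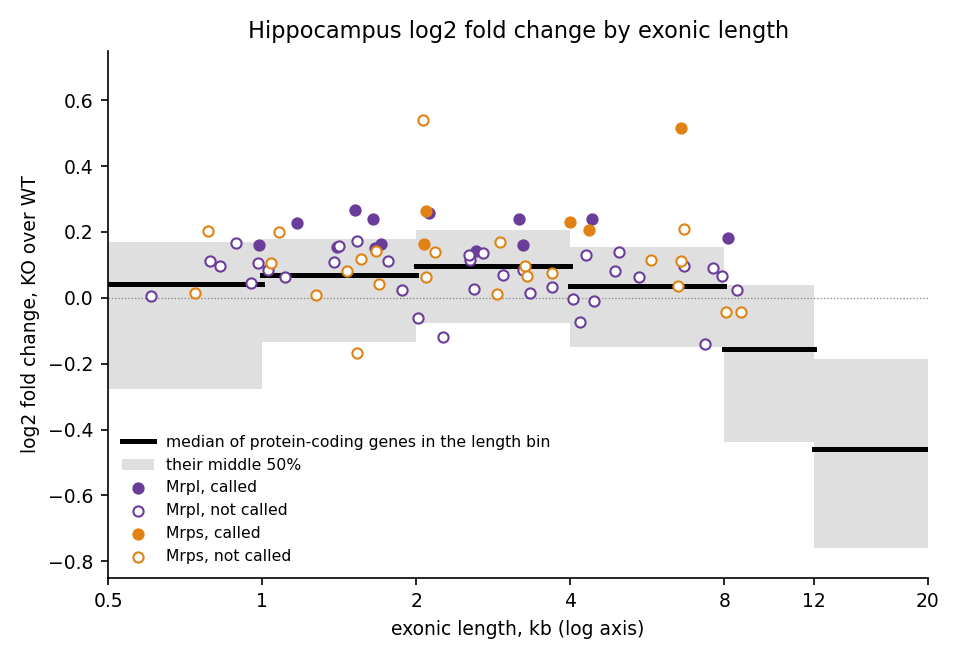
Log2 fold change of each member in hippocampus, KO over WT, against exonic length in kb on a log axis, filled where the adjusted p was under 0.05. Bars and boxes give the median and the middle 50% of protein-coding genes in each length bin (the first bin holds all genes up to 1 kb and the last all over 12 kb), and the median falls from 0.10 at 2 to 4 kb to -0.46 over 12 kb.

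In cortex none of the 77 members passed the test with all 6 libraries, against 1.94% of 21945 genes in either direction (1.28% higher and 0.661% lower). The edgeR and DESeq2 fits also called 0, and by an unadjusted limma p under 0.05 there were 2 members, both lower in KO, against 18.4% of all genes (10% higher and 8.38% lower). The median log2 fold change was -0.10, against -0.01 for all genes, and 8 of 77 members were above 0, against 47.9% of all genes. By exonic length, protein-coding genes up to 1 kb had a median of -0.16 (members -0.17), and those of 1 to 2 kb -0.11 (members -0.12). The medians were -0.02 at 2 to 4 kb (members -0.08), 0.06 at 4 to 8 kb (members -0.09) and 0.06 at 8 to 12 kb (members -0.07). The 3 KO libraries lay below the 3 WT libraries for 11 members (12.2% of all genes) and above for 0 (16% of all genes). These values rested on WT library 2, the library that stood apart. It was the highest of the 6 libraries for 72 of 77 members, and the members took 0.168%, 0.168% and 0.169% of all normalized counts in KO cortex, against 0.165%, 0.223% and 0.169% in WT cortex. Without WT library 2, 5 members rose and 0 fell, against 11% and 10.3% of all genes (21.3% in either direction), the median was 0.02 and 45 of 77 were above 0. Leaving out any other single cortex library left 0 members called, with 15 to 107 of all genes called, and a median between -0.16 and -0.09. With the length trend removed from all 6 libraries, 0 members were called, against 3.58% of all genes higher and 2.28% lower (5.86% in either direction), and the median was -0.06.

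Among the members with the smallest p in cortex, Mrpl57, a large-subunit protein without a bacterial counterpart, had 993, 1073 and 1164 normalized counts in KO cortex, against 1219.5, 1517 and 1204 in WT cortex (-0.28 ± 0.11, adjusted p = 0.248). All KO libraries were below all WT libraries, with or without WT library 2. Mrpl33 had 874, 691 and 729 in KO cortex, against 958, 1150.1 and 833 in WT cortex, with overlap and the most negative log2 fold change of all members (-0.35 ± 0.14, adjusted p = 0.249). Mrps35 had 1186, 1104 and 1143 in KO cortex, against 1242, 1300.4 and 1240.0 in WT cortex, without overlap (-0.14 ± 0.07, adjusted p = 0.328). In Mrps16, a protein of the small-subunit body, WT library 2 lay far above the other 5, with 799, 816 and 799 in KO cortex, against 874, 1272 and 871 in WT cortex (-0.30 ± 0.15, adjusted p = 0.345). The same held for Mrps6, with 846, 799.9 and 851 in KO cortex, against 879, 1261 and 922 in WT cortex (-0.28 ± 0.14, adjusted p = 0.346), and for Mrps25, with 1908, 1809 and 1763 in KO cortex, against 1957, 3118 and 1999.6 in WT cortex (-0.33 ± 0.17, adjusted p = 0.36). It was also the highest library in Mrps15 and Mrpl49, whose proteins belong to the small and the large subunit. Mrps15 had 1386, 1397 and 1332 in KO cortex, against 1475, 1742 and 1488 in WT cortex (-0.19 ± 0.08, adjusted p = 0.293), and Mrpl49 had 1842, 1686 and 1805 in KO cortex, against 1916, 2362 and 1858 in WT cortex (-0.20 ± 0.10, adjusted p = 0.365). Mrpl52, a large-subunit protein without a bacterial counterpart, had 718, 807 and 674 in KO cortex, against 784, 1197 and 795 in WT cortex, with overlap (-0.31 ± 0.17, adjusted p = 0.389).

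The 5 members that rose in cortex without WT library 2 were Mrps26, Mrpl48, Mrpl58, Mrpl43 and Mrpl20. Mrps26, a small-subunit protein without a bacterial counterpart, had normalized counts of 3167, 2951 and 3112 in KO cortex, against 2515 and 2540.2 in WT cortex libraries 1 and 3, with 3137 in WT library 2 (0.28 ± 0.04, adjusted p = 0.00262 without library 2). Mrpl48 had 5025, 5099.8 and 5252 in KO cortex, against 4228 and 4497 in WT cortex libraries 1 and 3, with 5433 in WT library 2 (0.23 ± 0.04, adjusted p = 0.00421). With all 6 libraries these 2 had the largest positive log2 fold changes in cortex, 0.18 (adjusted p = 0.376) and 0.13 (adjusted p = 0.525). Mrpl58, a peptidyl-tRNA hydrolase that is built into the large subunit, had 2632, 2464 and 2606 in KO cortex, against 2271 and 2309 in WT cortex libraries 1 and 3, with 2835 in WT library 2 (0.16 ± 0.04, adjusted p = 0.0328). Without library 2 the KO cortex libraries lay above both WT libraries in all of these, and Mrpl43 (0.19 ± 0.05, adjusted p = 0.0386) and Mrpl20 (0.15 ± 0.04, adjusted p = 0.0458) did so too. All but Mrpl58 also rose in hippocampus, where Mrpl58 had 0.01 (adjusted p = 0.866). With 2 WT libraries left, the spread of the WT group rests on that pair and on what limma shares over genes.

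**Figure D5:**
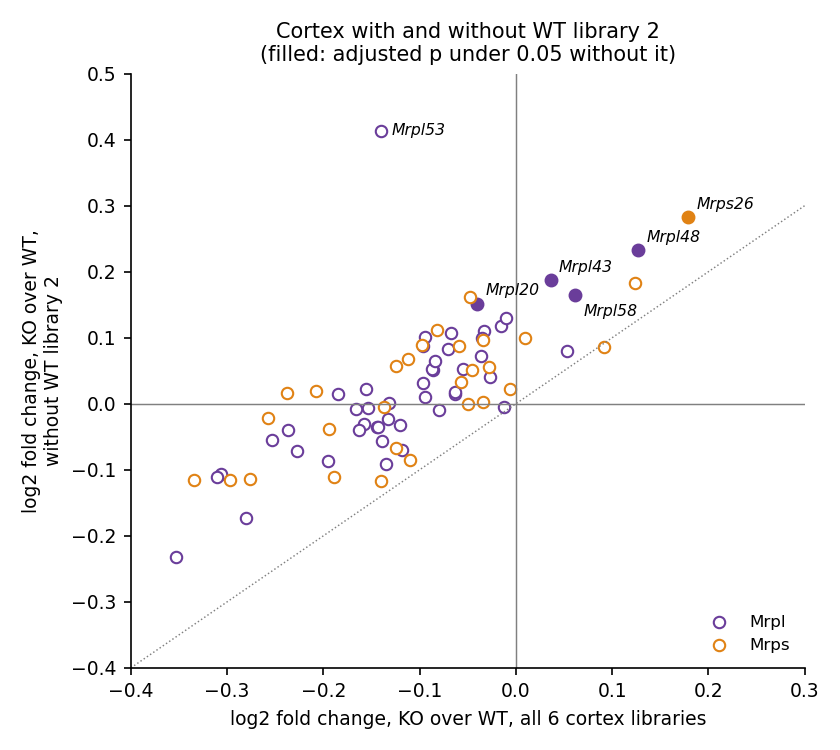
Log2 fold change of each member in cortex, KO over WT, with all 6 libraries (horizontal axis) and without WT library 2 (vertical axis), filled where the adjusted p was under 0.05 without that library. The points lie above the line of equal values with few exceptions, and the medians over members are 0.02 without the library and -0.10 with it.

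The difference between the tissues was the KO effect in hippocampus minus that in cortex. It was above 0 for 75 of 77 members, with a median of 0.21, and for 51.7% of all genes, with a median of 0.01. It varied with exonic length. Protein-coding genes up to 1 kb had a median of 0.21 (members 0.26), and those of 1 to 2 kb 0.17 (members 0.23). The medians were 0.11 at 2 to 4 kb (members 0.20), -0.03 at 4 to 8 kb (members 0.19) and -0.22 at 8 to 12 kb (members 0.06). None of the members passed the limma test, against 3.02% of 21282 genes in either direction (0.963% above 0 and 2.05% below). An unadjusted p under 0.05 was found for 14 members, all above 0, against 22.6% of all genes (9.58% above 0 and 13.1% below). Mrps25 had the smallest p (0.85 ± 0.23, adjusted p = 0.0649), followed by Mrpl50 (0.28 ± 0.09, adjusted p = 0.105), Mrpl44 (0.40 ± 0.13, adjusted p = 0.113) and Mrpl10 (0.28 ± 0.10, adjusted p = 0.13). In cortex Mrpl50 had 1813, 1864 and 1801 normalized counts in KO cortex, against 1698, 2042 and 1857 in WT cortex, with overlap. Mrpl44 had 952, 1003 and 979 in KO cortex, against 978, 1300.4 and 1032 in WT cortex. Mrpl10 had 2649.7, 2858 and 2753 in KO cortex, against 2829, 3379 and 2801 in WT cortex, and 3798, 3932 and 3673 in KO hippocampus, against 3341, 3351 and 3487 in WT hippocampus. In these 3 genes WT library 2 was the highest cortex library. Without WT cortex library 2 the median difference was 0.08, and Mrps25 was called at 0.63 (adjusted p = 0.0187), against 3.06% of all genes above 0 and 6.17% below (9.24% in either direction). Without WT cortex library 1 there were 3 calls (Mrps25, Mrpl50 and Mrpl44), against 1.54% of all genes above 0 (6.27% in either direction). Without WT cortex library 3 there was 1 (Mrps25), against 1.08% above 0 (4.32% in either direction). DESeq2 on recovered reads called 2, Mrps25 at 0.90 (adjusted p = 0.00455) and Mrpl50 at 0.29 (adjusted p = 0.0479), against 3.25% of all genes above 0 and 6.53% below (9.77% in either direction).

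Other parts of mitochondrial translation were set beside the members by 7 lists, whose counts stand against 14.1% of all genes rising and 15.1% falling in hippocampus. Of 5 mitoribosomal proteins with other names (Dap3, Ptcd3, Chchd1, Aurkaip1 and Gadd45gip1) none was called in hippocampus by limma or DESeq2, 2 had an unadjusted p under 0.05 (41.3% of all genes), and the median was 0.12. Dap3, a GTP-binding small-subunit protein, had 4781, 5258 and 5191 normalized counts in KO hippocampus, against 4380.0, 4864 and 4554 in WT hippocampus, with overlap (0.14 ± 0.06, adjusted p = 0.0949). Aurkaip1 had 2641, 2856 and 2596 in KO hippocampus, against 2462, 2524 and 2427 in WT hippocampus, without overlap (0.13 ± 0.05, adjusted p = 0.0966). Dap3 was called in 4 of 18 alternatives, among them without WT library 2 at 0.18 (adjusted p = 0.0319), with quantile scaling at 0.15 (adjusted p = 0.0347) and with the length trend removed at 0.18 (adjusted p = 0.0402). Gadd45gip1 was called in 1, without WT library 2, at 0.22 (adjusted p = 0.0241). Of 22 assembly factors 3 rose (Mrm3, Rbfa and Noa1; 13.6%) and 2 fell (Mterf3 and Mettl17; 9.09%), no more than the shares of all genes. Mettl17, a methyltransferase-like factor of small-subunit assembly, had 1986, 2050.1 and 2006 in KO hippocampus, against 2211, 2515 and 2405 in WT hippocampus (-0.24 ± 0.06, adjusted p = 0.0171). Mrm3, which methylates the large ribosomal RNA, had 617, 626 and 642 in KO hippocampus, against 509, 554 and 486 in WT hippocampus (0.28 ± 0.07, adjusted p = 0.0237). The KO libraries lay below the WT libraries in Mettl17 and above them in Mrm3. This list had 0 calls without KO library 1 and without WT library 3, and 1, 1 and 2 without KO library 2, KO library 3 and WT library 1. Of all genes 21.1%, 16.4%, 18.1%, 20.5% and 25.7% were called in these settings, in that order, against 29.2% with all libraries.

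Of 15 translation factors 3 rose (Mtrf1, Oxa1l and Lrpprc) and 1 fell (Gfm2) in hippocampus. Lrpprc, which stabilises mitochondrial messenger RNAs, had 5486, 5911 and 5842 normalized counts in KO hippocampus, against 4938, 5151 and 4889 in WT hippocampus (0.20 ± 0.04, adjusted p = 0.013). Gfm2, a factor of ribosome recycling, had 2612, 2586 and 2706 in KO hippocampus, against 3074, 3108 and 2925 in WT hippocampus (-0.20 ± 0.04, adjusted p = 0.0117). With the length trend removed, Gfm2 was at 0.05 (adjusted p = 0.462). The list had 0 calls without KO library 2, 1 without WT library 3 and 2 without KO library 3 or WT library 1. Of all genes 18.1%, 16.4%, 20.5% and 25.7% were called in these settings, in that order. Among 17 mitochondrial aminoacyl-tRNA synthetases, which charge the transfer RNAs used by the ribosome, 3 rose (Iars2, Sars2 and Yars2) and 5 fell (Lars2, Wars2, Mars2, Ears2 and Cars2). Lars2, the leucyl enzyme, had 10427, 11923 and 17284 in KO hippocampus, against 40696, 32588 and 31138 in WT hippocampus (-1.42 ± 0.18, adjusted p = 0.00134). Mars2, the methionyl enzyme, had 1063, 1044 and 1142 in KO hippocampus, against 1551, 1763 and 1567 in WT hippocampus (-0.59 ± 0.07, adjusted p = 0.000817). Wars2, the tryptophanyl enzyme, had 339, 404 and 441 in KO hippocampus, against 653, 623 and 685 in WT hippocampus (-0.73 ± 0.11, adjusted p = 0.00232). In these 3 the KO libraries lay far below the WT libraries, and their calls held in all 18 alternatives. The list had 0 rises without KO library 3 or WT library 3, and 1 without KO library 2. Of all genes 8.16%, 5.84% and 6.54% rose in these settings, in that order.

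For the mitochondrial genome itself, 2 of 12 genes of its transcription and RNA processing rose in hippocampus, Tfam and Tfb2m (16.7%, close to the 14.1% of all genes). Tfam, the packaging and transcription factor of mitochondrial DNA, had 2406, 2521 and 2498 normalized counts in KO hippocampus, against 2139, 2115 and 2161 in WT hippocampus, without overlap (0.21 ± 0.04, adjusted p = 0.00835), and was called in all 18 alternatives. Tfb2m, a transcription factor of the same genome, had 1095, 1166 and 1272 in KO hippocampus, against 1045, 960.0 and 953 in WT hippocampus (0.25 ± 0.07, adjusted p = 0.0338). Its adjusted p was 0.0902, 0.105, 0.0582 and 0.12 without KO library 2, KO library 3, WT library 2 and WT library 3. Of the 13 mitochondrially encoded messenger RNAs 9 rose in hippocampus and 0 fell, with a median of 0.34. Rises numbered 5, 5 and 3 without KO library 1, KO library 3 and WT library 3, when 8.55%, 8.16% and 5.84% of all genes rose. The largest was mt-Nd5, a complex I subunit, with 304252, 288111 and 330626 in KO hippocampus, against 202835, 193904 and 203512 in WT hippocampus (0.62 ± 0.07, adjusted p = 0.000662). Genes of this genome abut or overlap, so their counts are not independent. Neither ribosomal RNA passed the test, and their groups overlapped. For mt-Rnr1 the counts were 159170.0, 153168 and 176658 in KO hippocampus, against 152393, 168722 and 164121 in WT hippocampus (0.01 ± 0.07, adjusted p = 0.935), and for mt-Rnr2 226308, 224110.0 and 267449 in KO hippocampus, against 219672, 228714 and 224779 in WT hippocampus (0.09 ± 0.08, adjusted p = 0.449).

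In cortex none of these 7 lists had a limma call with all libraries. By an unadjusted p under 0.05 there were 2 calls among 17 synthetases, 2 among 22 assembly factors and 4 among 13 messenger RNAs. There were 2 among 2 ribosomal RNAs, 1 among 15 translation factors, 1 among 12 transcription genes and 0 among 5 proteins with other names. Of all genes 18.4% had such a p, a share reached only by the messenger RNAs and the ribosomal RNAs. DESeq2, which called far more of all genes in cortex than limma, called mt-Rnr2, 2 messenger RNAs (mt-Nd5 and mt-Nd4l) and 1 assembly factor. The counts of mt-Rnr1 were 149578, 131853 and 138751 in KO cortex, against 162132, 254282 and 167584 in WT cortex (-0.45 ± 0.17, adjusted p = 0.23). For mt-Rnr2 they were 192559, 170273 and 178010.0 in KO cortex, against 219808, 298442 and 213330.0 in WT cortex (-0.42 ± 0.14, adjusted p = 0.173). In both, all KO libraries lay below all WT libraries, with or without WT library 2. Without it both were called lower, mt-Rnr1 at -0.24 (adjusted p = 0.0081) and mt-Rnr2 at -0.27 (adjusted p = 0.00421). Of the messenger RNAs 6 then rose and 1 fell, of the synthetases 5 fell, of the assembly factors 3 fell, and of the transcription list 1 rose and 1 fell, against 11% of all genes rising and 10.3% falling. Lars2 at -0.74 (adjusted p = 0.0345) and Mars2 at -0.46 (adjusted p = 0.00072) were among the synthetases that fell. The other 2 lists had 0 calls without library 2.

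The pseudogenes named after members were weakly read. Mrpl48-ps had 191, 149 and 187 normalized counts in KO hippocampus, against 153, 167 and 139 in WT hippocampus, far below Mrpl48 itself, and Mrps36-ps3 was at 0 in every library. None of the other 4 was called in either tissue, and reads shared between a parent and its copy could have been split or dropped in counting. Mrpl53, the member with the lowest normalized counts, had 228, 154 and 256 in KO cortex, against 185, 495 and 131 in WT cortex (-0.14 ± 0.47, adjusted p = 0.896), and 88.0% of its exons are shared with the predicted gene Gm42688 on the same strand. Relative to the mean, its WT cortex libraries had the widest spread of all members.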

How the data were processed

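Total RNA of 12 libraries was sequenced. The authors deposited 1 table per tissue of normalized counts, a signal per gene in which each library's gene counts are divided by a size factor, and the tables were scaled separately. STAR, HTSeq and DESeq2 and the build GRCm38 are named per the submitters' processing notes, with no versions given. All values of a library were whole multiples of 1 step (100% within 0.001), which gave the reads. In WT cortex libraries 1 and 2 the step lies close to 1 and this could not be checked.

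From these values, genes with a mean of at least 10 over the 6 libraries of a tissue were fitted with limma 3.58.1 (R 4.3.3; prior variance following expression) on log2(normalized count + 1), with Benjamini-Hochberg adjustment over all genes tested. The interaction term came from 1 fit of all 12 libraries, each taken as independent. The limma fits were also run on simulated counts with log2 changes of 0.5 and 1, larger than most changes of the members. The simulation had the same dispersion for all genes, no outlying library and no length trend. It therefore does not tell how well changes as small as these are called in these libraries. Alternatives were pseudocounts of 0.5 and 5, no filter or a mean of at least 50, quantile and recomputed median-ratio scaling, no trend of the prior variance, edgeR 4.0.16 and DESeq2 1.42.0 on the recovered reads, removal of the trend along exonic length (lowess span 0.3), a replicate block, and leaving out each library.

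Of 55487 rows, 55227 matched the annotation. Members, lists and tests were chosen with earlier results of these data known. Values per library are given for the 8 members with the smallest p in each tissue, the 3 largest log2 fold changes in each direction, the highest and lowest 3 per kb (as mean and SD), the 4 with the smallest interaction p, the Mrps18 genes, and genes of the related lists by smallest p. Other members named were chosen after their values were seen.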

Additional observations from a re-analysis of the deposited data

How the results depend on the processing

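In hippocampus, the members called were 18 in the analysis as reported, 7 with no trend of the prior variance (9.09% of members, against 7.68% of all genes rising) and 3 to 20 when 1 library was left out (3.90% of members, against 5.84% of all genes, without WT library 3). Their median log2 fold change, 0.11 as reported, was 0.0884 with edgeR and TMM scaling, 0.0815 with the length trend removed and 0.0862 to 0.119 when 1 library was left out. Of single members under the alternatives, 1265 outcomes in hippocampus kept their side of the threshold, of which 46, in 15 members called in neither setting, changed sign, 99 lost the call and 22 gained one. The cause of these changes was not tested.

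In cortex the members called were 0, and 0 to 5 when 1 library was left out, with the 5 arising without WT library 2. Their median, -0.10, ran from -0.16 to 0.02. Without that library Mrpl20 reversed to 0.15 (adjusted p = 0.0458) and mt-Nd2 to 0.12 (adjusted p = 0.0337), while without WT library 3 they were at -0.15 and -0.11. In hippocampus Gfm2 reversed to 0.0479 (adjusted p = 0.462) with the length trend removed.

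Over all genes in cortex the calls were 426, but 233 with no filter, 86 with no trend of the prior variance, 1609 with DESeq2, 1283 with the length trend removed, 45 with the replicate block and 15 to 4675 when 1 library was left out. In hippocampus they were 6513, and 3655 to 7866 when 1 library was left out. For the difference between tissues they were 642, but 370 with no filter, 1013 with quantile scaling, 253 with no trend of the prior variance, 1046 with edgeR and TMM scaling, 2080 with DESeq2, 1020 with the length trend removed, 216 with the replicate block and 171 to 1966 when 1 library was left out. Members called for that difference were 0, but 2 with DESeq2 and 0 to 3 when 1 library was left out.

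The labels do not tell if same-numbered libraries belong together, and the fits as reported left them unpaired. Between the tissues, deviations of same-numbered libraries from their group means correlated at -0.09 to 0.06. With 3 libraries a group, such correlations cannot decide the question. With the replicate block 13 members and Dap3 (adjusted p = 0.048) were called in hippocampus. At 3 libraries a group, and 2 when 1 is left out, single libraries set many calls. The median member had a CV between libraries of 3.91% in KO hippocampus, where counting error of 1 library alone is 2.35%, and 3.68% in WT hippocampus, where it is 2.58%.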
